A study of Mus musculus with 15 samples.

Results

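MHC class I molecules display peptides of a cell's own proteins to CD8+ T cells and NK cells. The proteasome cuts the peptides, the TAP transporter carries them into the endoplasmic reticulum, and tapasin helps to load them onto a heavy chain paired with β2-microglobulin. Interferons exchange the catalytic proteasome subunits for inducible ones, which makes the immunoproteasome, and raise the other parts of the route through IRF factors and the transactivator NLRC5. The genes described here are 10 members of this route in mouse skin. They are the heavy chain genes *H2-K1* and *H2-D1*, the light chain gene *B2m*, the transporter subunits *Tap1* and *Tap2*, the tapasin gene *Tapbp*, the inducible proteasome subunits *Psmb8*, *Psmb9* and *Psmb10*, and *Nlrc5*. They were chosen by symbol, and each of the 10 had 1 entry among the 55487 genes of the count table.

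OTULIN is a deubiquitinase that removes linear ubiquitin chains. The 15 libraries were QuantSeq 3′ mRNA libraries from the skin of 3-week-old C57BL/6 mice, 5 in each of 3 groups. The WT mice carried loxP-flanked *Otulin* alleles without Cre. The mice labelled OTULIN-KO, named OTULIN E-KO in the study, were *Otulin* fl/fl *K14-Cre*, and their skin was sampled at non-lesional and at lesional sites. The *K14* promoter drives Cre in keratinocytes, so the other cells of the skin kept OTULIN. Skin tissue holds many cell types, and in such bulk samples a larger share of a cell type and more RNA per cell cannot be told apart. The sources used here do not say whether a non-lesional and a lesional library came from the same mouse. The p-values measure the spread between these libraries only.

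Library totals ran from 1962604 to 2567138 counts. *Otulin* had 12.4 to 28.5 CPM (counts relative to the TMM-scaled library total) in WT, 21.5 to 31.1 in non-lesional and 19.2 to 27.5 in lesional libraries. Which *Otulin* exons were flanked is not given in the sources used here, so its 3′ counts do not check the genotype labels. The lesional libraries 2 and 11 stood apart from the other 13. Their summed levels of 8 neutrophil markers were 3024 and 5194 CPM, against 1.70 to 7.21 in WT, 3.44 to 222 in non-lesional and 4.04 to 10.8 in the other lesional libraries. Most of this sum was *S100a8* and *S100a9*, which inflamed keratinocytes also express. Of the 8 markers, 6 had counts in each of lesional libraries 2 and 11, against 1 to 4 in each other library, and the remaining 2, *Csf3r* and *Ly6g*, were at 0 counts in all 15. *Retnlg*, *Trem1*, *Cxcr2* and *Mmp8* reached at most 23, 14, 11 and 5 counts. Among non-lesional libraries, 3 stood apart in the same direction. *Krt6b*, a keratin of stressed epidermis, was at 222.9 CPM there and at 0.86 to 10.2 CPM in the other non-lesional libraries, against 3569 and 8822 CPM in lesional libraries 2 and 11, 1.21 to 4.91 CPM in lesional libraries 5, 8 and 14, and 1.28 to 17.3 CPM in WT. The last 3 lesional libraries were thus within or below the WT range of this keratin. *S100a8* was at 117.1 CPM in non-lesional library 3 and at 2.03 to 11.9 CPM in the others of its group. Keratinocyte markers were present in every library, and their sums were 13593 and 17828 CPM in lesional libraries 2 and 11 and 7441 to 11737 in the others. Values of the 10 genes and of the genes named from pathway lists are therefore also given without libraries 2 and 11, a choice made after seeing the data.

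Of the 10 genes, 7 lay on chromosome 17 between 33915899 and 35267499 (GRCm38). *Psmb9*, *Tap1*, *Psmb8* and *Tap2* were neighbours there, from 34181987 to 34216321. *Psmb10* and *Nlrc5* were on chromosome 8, and *B2m* was on chromosome 2. RefSeq promoter windows (GRCm38.p6), which run from 250 bases before to 50 bases after the annotated start, were matched for 8 of the 10 genes. *Tap2* and *Nlrc5* had none. The windows of the 3 genes of the class I molecule itself and of *Tap1* are printed 5′ to 3′, since their expression is described next. Capitals mark the interferon-stimulated response element (ISRE), a relaxed form of it, and NF-κB letters.
*H2-K1* (chr17:34000298-34000597, minus strand): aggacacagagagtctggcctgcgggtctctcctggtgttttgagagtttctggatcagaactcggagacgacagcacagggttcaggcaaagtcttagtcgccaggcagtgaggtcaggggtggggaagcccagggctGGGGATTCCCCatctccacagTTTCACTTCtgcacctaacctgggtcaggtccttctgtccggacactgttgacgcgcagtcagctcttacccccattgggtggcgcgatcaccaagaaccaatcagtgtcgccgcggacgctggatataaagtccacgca
*H2-D1* (chr17:35262844-35263143, plus strand): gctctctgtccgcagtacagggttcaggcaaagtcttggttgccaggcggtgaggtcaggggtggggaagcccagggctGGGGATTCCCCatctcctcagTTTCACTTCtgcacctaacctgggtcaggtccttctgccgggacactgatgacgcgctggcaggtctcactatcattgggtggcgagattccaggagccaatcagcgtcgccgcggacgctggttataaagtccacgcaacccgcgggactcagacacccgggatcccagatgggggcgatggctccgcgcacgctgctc
*B2m* (chr2:122147437-122147736, plus strand): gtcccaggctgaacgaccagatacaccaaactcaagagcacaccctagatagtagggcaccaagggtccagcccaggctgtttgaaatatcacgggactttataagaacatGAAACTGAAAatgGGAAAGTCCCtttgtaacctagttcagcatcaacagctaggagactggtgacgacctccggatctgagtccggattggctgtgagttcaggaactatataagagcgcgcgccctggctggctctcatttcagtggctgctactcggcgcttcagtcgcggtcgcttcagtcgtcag
*Tap1* (chr17:34187306-34187605, plus strand): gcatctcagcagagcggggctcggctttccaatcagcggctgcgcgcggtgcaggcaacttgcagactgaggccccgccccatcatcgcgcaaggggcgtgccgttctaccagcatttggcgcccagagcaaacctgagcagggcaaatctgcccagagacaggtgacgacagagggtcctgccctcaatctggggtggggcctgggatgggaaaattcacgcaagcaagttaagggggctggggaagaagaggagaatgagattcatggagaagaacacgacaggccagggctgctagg
Positions are counted from the start site as 0. The *B2m* window held the ISRE letters GAAANNGAAA from −139 to −130, and no other of the 8 windows did, against 3.49% of 27018 promoter windows of this length. The relaxed form GAANNGAAA was in the windows of *H2-K1*, from −90 to −82, and *H2-D1*, from −150 to −142, against 7.57% of all windows. NF-κB letters were in the windows of *H2-K1*, *H2-D1* and *B2m*, against 8.18% of all windows, and in *H2-K1* and *H2-D1* they lay just upstream of the relaxed ISRE. The letters TTCNNNGAA of the interferon-γ-activated site (GAS) were in 1 window, that of *Psmb8* from −97 to −89, against 8.47% of all windows. Class I promoters also carry an SXY module, read by RFX, CREB-type and NF-Y factors and used by NLRC5. The X2 box core TGACG was in 5 of the 8 windows, against 21% of all, and the Y box CCAAT in 6, against 37.9%. The windows of *Tap1* and *Psmb9*, which are transcribed in opposite directions, shared 275 bases, and their X2 and Y box matches are the same sites, counted for both genes. Both strands were searched, and a match is a description of letters, not of binding.

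**Figure D1:**
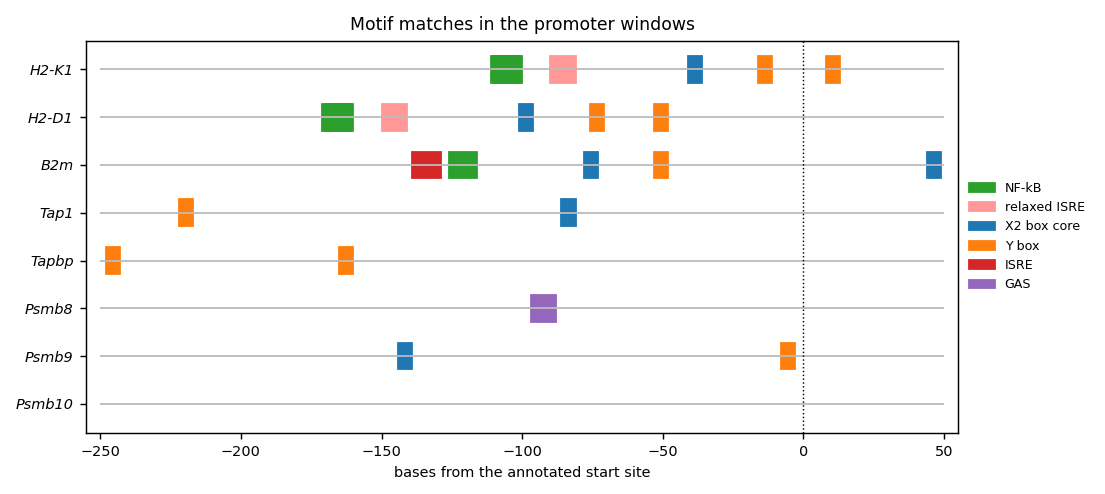
Motif matches in the promoter windows of 8 genes, drawn as boxes against the distance in bases from the annotated start site (dotted line), with 1 colour per motif. NF-κB boxes sit upstream of the relaxed ISRE in *H2-K1* and *H2-D1* and downstream of the ISRE in *B2m*, and *Psmb10* has no box.

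The levels of the 10 genes differed widely. Since QuantSeq reads only the 3′ end of a transcript, CPM need no correction for length. The WT medians were 1127 CPM for *B2m*, 424.5 for *H2-K1*, 122.5 for *Tapbp* and 101.3 for *H2-D1*. They were 34.9 CPM for *Tap1*, 20.9 for *Psmb10*, 20.5 for *Psmb8* and 19.5 for *Nlrc5*, and lowest for *Psmb9* at 9.42 and *Tap2* at 5.54. In this order the WT ranges of *Tapbp* and *H2-D1* did not overlap (109.9 to 134.4 and 81.7 to 107.4 CPM), whereas those of *Psmb10*, *Psmb8* and *Nlrc5* did. The 10 genes together took 1639 to 2282 CPM in WT, 1818 to 2770 in non-lesional and 1827 to 6740 in lesional libraries.

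**Figure D2:**
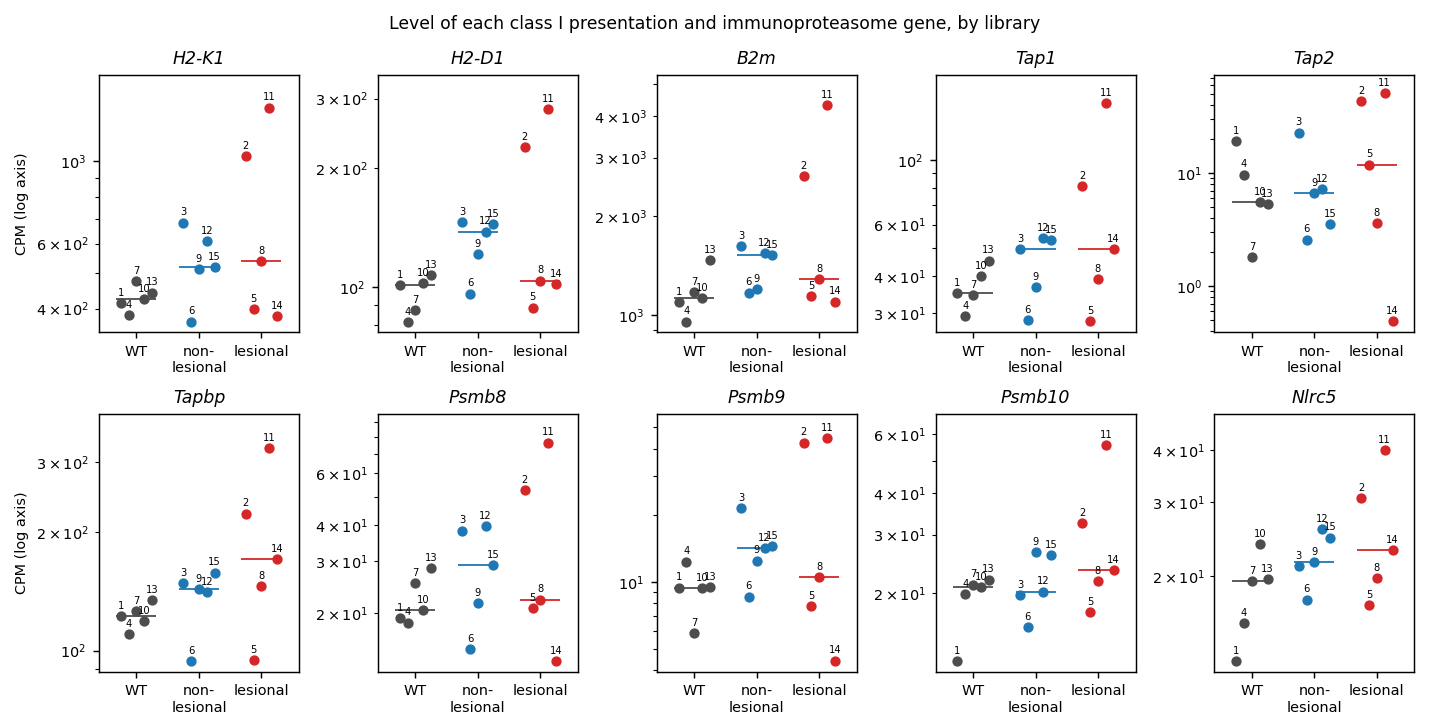
CPM of each of the 10 genes in the 15 libraries, on log axes that differ between panels. Each point is a library with its replicate number, and the line is the group median; lesional libraries 2 and 11 are the highest of all 15 for every gene.

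The heavy chains come first. *H2-K1* was at 415, 384.5, 475, 424.5 and 442 CPM in WT replicates 1, 4, 7, 10 and 13. It was at 683, 369, 511, 609 and 518 CPM in non-lesional replicates 3, 6, 9, 12 and 15, and at 1034, 399, 538, 1396 and 382 CPM in lesional replicates 2, 5, 8, 11 and 14. Thus 4 of 5 non-lesional libraries lay above every WT library, and replicate 6 lay below all of them. Among lesional libraries, 2, 8 and 11 were above WT, and 14 was below it. *H2-D1* was at 101.3, 81.7, 87.4, 102.3 and 107.4 CPM in WT, at 146.3, 96.2, 121.2, 138.2 and 144.4 CPM in non-lesional, and at 225.6, 88.7, 103.9, 282.1 and 101.6 CPM in lesional libraries, in the same order of replicates. Again all non-lesional libraries but 6 exceeded WT, and lesional libraries 5, 8 and 14 fell inside the WT range. In the last 500 bases of the transcript, 0.443% of the 50-base stretches of *H2-K1* were also found in *H2-D1*, and 9.53% of those of *H2-D1* were found in other genes, so reads from these stretches may not be assigned to a single gene.

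*B2m* was at 1096, 958, 1178, 1127 and 1468 CPM in WT libraries. Non-lesional libraries had 1619, 1171, 1201, 1539 and 1521 CPM, and lesional libraries 2641, 1141, 1288, 4312 and 1100 CPM. Non-lesional libraries 3, 12 and 15 and lesional libraries 2 and 11 were above every WT library, and the groups overlapped. In lesional library 11, *B2m* was 3.92 times its level in the lowest lesional library, whereas the highest WT library was 1.53 times the lowest.

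Of the transporter genes, *Tap1* was at 34.9, 29.1, 34.4, 40.1 and 45.2 CPM in WT, at 49.5, 28.3, 36.6, 53.9 and 53.0 CPM in non-lesional and at 81.2, 28.01, 39.2, 156.0 and 49.6 CPM in lesional libraries. Non-lesional libraries 3, 12 and 15 and lesional libraries 2, 11 and 14 exceeded WT. *Tap2*, whose product pairs with that of *Tap1*, varied most inside every group. Its raw counts were 49, 22, 4, 13 and 14 in WT, 51, 6, 16, 18 and 8 in non-lesional, and 95, 23, 9, 102 and 1 in lesional libraries. The highest *Tap2* library was 10.6 times the lowest within WT, 8.91 times within non-lesional and 105.3 times within lesional libraries on the CPM scale, so the groups overlapped almost wholly. *Tapbp*, which bridges the transporter and the heavy chain, was at 109.9 to 134.4 CPM in WT, 94.1 to 157.7 in non-lesional and 94.4 to 325.2 in lesional libraries. It exceeded WT in 4 of 5 non-lesional libraries and in 4 of 5 lesional libraries, the exceptions being 6 and 5. *Tapbp* exons share 149 bases with *Zbtb22* on the same strand, and a read there was counted for both. On the opposite strand *Tapbp* shares 904 bases with *Gm19412*, which had 257 counts over all libraries, and *Tap1* shares 212 bases with *Psmb9*. The counting parameters listed in the study's methods include no strand option, so reads in these stretches may also have been counted for both genes.

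The inducible subunits of the immunoproteasome follow. *Psmb9* (β1i) was at 9.42, 12.4, 5.89, 9.38 and 9.49 CPM in WT, at 21.6, 8.59, 12.5, 14.2 and 14.6 CPM in non-lesional and at 42.6, 7.78, 10.5, 44.6 and 4.42 CPM in lesional libraries. Non-lesional libraries 3, 9, 12 and 15 were above WT, and among lesional libraries only 2 and 11 were. *Psmb8* (β5i) was at 18.5 to 28.5 CPM in WT and 15.03 to 39.7 in non-lesional libraries, and at 52.7, 20.7, 22.2, 76.5 and 13.7 CPM in lesional libraries. *Psmb10* (β2i) was at 12.6 to 22.02 CPM in WT, 15.9 to 26.7 in non-lesional and 17.6 to 55.7 in lesional libraries. *Nlrc5*, the transactivator, was at 12.6 to 23.9 CPM in WT, 17.6 to 25.9 in non-lesional and 17.1 to 40.0 in lesional libraries.

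Within a library the 10 genes tended to be high or low together. In lesional libraries 2 and 11 all 10 were above every WT library. In lesional libraries 5, 8 and 14 this held for 0, 2 and 3 of the 10 genes. In non-lesional libraries 3, 9, 12 and 15 it held for 8, 5, 8 and 9 genes, and in library 6 for 0. The share of all genes above every WT library was not computed for single libraries. The mean log2 CPM over the 10 genes was 1.31 and 1.80 above the WT mean in lesional libraries 2 and 11, and between −0.26 and 0.08 from it in the other lesional libraries. In non-lesional libraries 3, 9, 12 and 15 it was 0.20 to 0.64 above the WT mean, and in library 6 it was −0.29. WT libraries themselves ranged from −0.15 to 0.15.

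**Figure D3:**
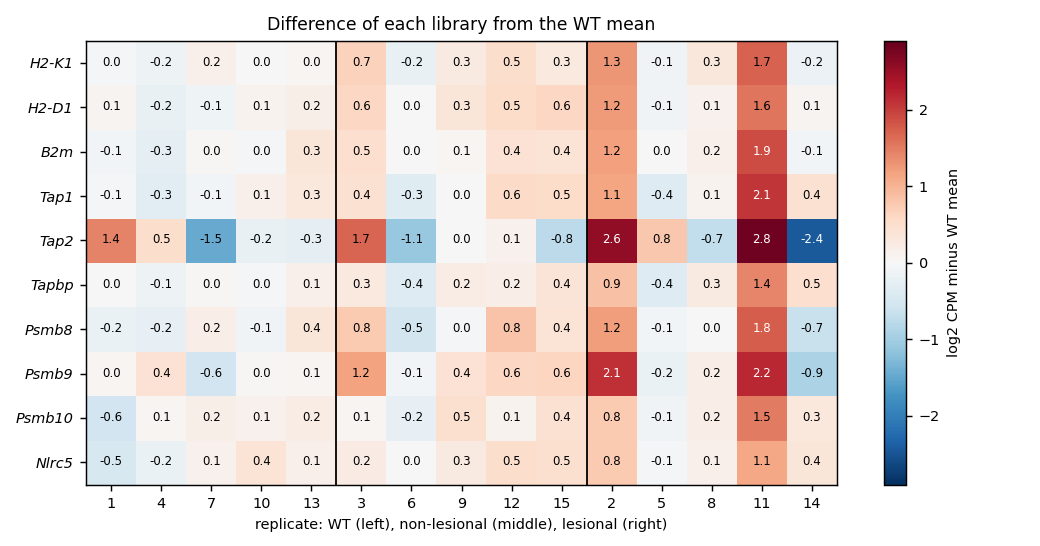
Difference of log2 CPM from the WT mean for each of the 10 genes (vertical) in each of the 15 libraries (horizontal, labelled by replicate and split by group). Red cells are above and blue cells below the WT mean; the columns of lesional libraries 2 and 11 are red for every gene, and *Tap2* varies most, also in WT.

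To compare non-lesional skin with WT skin, the counts of all genes were fitted with edgeR's quasi-likelihood test. All 10 genes passed the filter on low counts. Their fitted log2 fold changes were all above 0, against 49.4% of the 13021 genes tested, with a median of 0.28 and a range from 0.02 for *Tap2* to 0.61 for *Psmb9*. The median over all genes was −0.0027. None of the 10 had an adjusted p under 0.05 (0% of all genes did), and none had groups that did not overlap (0.392% of all genes did, being higher). An unadjusted p under 0.05 was reached by 3 of the 10, all higher in non-lesional skin, against 1.85% of all genes. DESeq2 and limma's voomWithQualityWeights gave 4 such genes each, against 0.912% of 27202 and 1.97% of 13021 genes. Both likewise gave 0 adjusted calls among the 10.

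*H2-D1* had the smallest p of the 10, with a log2 fold change of 0.43 (SE 0.13, edgeR adjusted p = 0.9998). The other 2 were *H2-K1*, with 0.33 (SE 0.13), and *Psmb9*, with 0.61 (SE 0.26), at the same adjusted p. In a two-sided exact permutation test of mean log2 CPM, whose smallest possible p with 5 against 5 libraries is 0.0079, *H2-D1* gave p = 0.0317. The exact permutation p was 0.0635 for *Psmb9* and *B2m* and 0.0952 for *H2-K1*. Tests of the 10 genes are not independent, since the genes varied together. *Tap2* was the exception in size, and its mean log2 CPM differed by −0.0049, opposite in sign to its fitted fold change. Without non-lesional library 6, 7 of the 10 genes had an unadjusted edgeR p under 0.05, against 1.83% of all genes being higher. Without library 3, which stood apart in *Krt6b* and *S100a8*, only 1 had, against 1.97%, at a median of 0.22. With all 15 libraries in 1 fit there was none, against 1.08%, at a log2 median of 0.28.

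The same test was used for lesional against WT skin, with the same 5 WT libraries. All 10 fold changes were above 0, against 49.5% of 12918 genes, with a median of 0.78 and a range from 0.52 for *Nlrc5* to 1.40 for *Tap2*. None had an adjusted p under 0.05 (0% of all genes), and none had groups that did not overlap (0.441% of all genes, being higher). An unadjusted p under 0.05 was reached by 6 of the 10, against 3.24% of all genes higher in lesional skin. They were *H2-K1* with a log2 fold change of 0.81 (SE 0.33), *H2-D1* with 0.74 (SE 0.31), *B2m* with 0.85 (SE 0.36), *Tap1* with 0.94 (SE 0.40), *Tapbp* with 0.65 (SE 0.26) and *Psmb10* with 0.65 (SE 0.29). *Psmb9*, with 1.23 (SE 0.58), and *Tap2*, with 1.40 (SE 0.91), had larger fold changes and wider errors. Every one of the 10 had an adjusted p of 0.9256 with edgeR. DESeq2 gave 7 genes with an unadjusted p under 0.05, against 2.52% of 26979 genes being higher. With voomWithQualityWeights, which weighs libraries by their spread, there were 0, against 1.9%, at a median log2 fold change of 0.39. The two-sided exact permutation p was lowest for *Nlrc5*, at 0.119, and was 0.127 for *Tapbp* and 0.603 for *Tap2*.

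These fold changes rested on lesional libraries 2 and 11. Without both, the median log2 fold change against WT was 0.03, 7 of the 10 genes were above 0, and 0 had an unadjusted edgeR p under 0.05. Without library 11 alone the median was 0.42, and without library 2 alone it was 0.64, with 0 such genes in each case. Leaving out WT library 4 also left 0, at a median of 0.73. With sets of consecutive library numbers as a block, chosen after seeing the data, 3 of the 10 genes had an unadjusted p under 0.05, at a median of 0.60. Of all genes, 2.58% then had such a p and were higher. The neutrophil and keratinocyte marker sums were high in the same 2 libraries. Of the 8 keratinocyte markers, 6 were higher and 2 lower in lesional than in WT skin. *Krt14* had a log2 fold change of 1.36 (SE 0.57) and *Krt10* one of −0.49 (SE 0.34). Other marker sums were lowest of all 15 libraries in 11 and next lowest in 2, at 3514 and 15135 CPM for skeletal muscle, 879 and 986 CPM for adipocytes and 117 and 158.6 CPM for endothelium. In the other 13 libraries the lowest were 15488, 1062 and 175.8 CPM. Library 11 was also the 1 lesional library with 0 counts of the Y-linked *Ddx3y*. The part of each of these in the result was not tested. T and NK cell markers summed to 80.9 to 148 CPM in WT, 121.1 to 171 in non-lesional and 110.4 to 167.7 in lesional libraries. Most of this sum was *Thy1*, at 60.9 to 119.6 CPM in WT and 88.2 to 148.3 CPM in lesional libraries, which other skin cells also express. *Cd3e*, a subunit of the T cell receptor complex, had a log2 fold change of −0.31 (SE 0.40) between lesional and WT skin. In the same comparison *Thy1* had 0.29 (SE 0.20). Of these markers, *Cd8a* was at 0 counts in 11 and *Gzmb* in 12 of all 15 libraries. Lesional libraries 2 and 11 and non-lesional library 3 each had counts for 10 of 11 such markers. Each other library had counts for 6 to 9. Macrophage and dendritic cell markers summed to 677 to 1235, 742 to 972 and 747 to 1124 CPM in the 3 groups, and these ranges overlapped. Of the 13 markers in this list, 8 were higher and 5 lower in lesional than in WT skin. An unadjusted p under 0.05 was reached by 2, both higher, against 3.24% of all genes, and 1 had groups that did not overlap, against 0.441%. They were *Aif1*, with a log2 fold change of 1.19 (SE 0.29) and more in 5 of 5 lesional libraries than in every WT library, and *C1qa*, with 0.57 (SE 0.25), both at an edgeR adjusted p of 0.9256. Without libraries 2 and 11 they had 0.83 (SE 0.30) and 0.24 (SE 0.24), and 6 of the 13 were higher.

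In the OTULIN E-KO mice, lesional was then compared with non-lesional skin. The 10 fold changes were again above 0, against 50.6% of 12864 genes, with a median of 0.48 and a range from 0.23 for *Nlrc5* to 1.37 for *Tap2*. None of the 10 had an adjusted edgeR p under 0.05 (0% of all genes), and none had an unadjusted p under 0.05, against 2.89% of all genes higher in lesional skin. DESeq2 and voomWithQualityWeights also gave 0 of each kind among the 10, and with the latter the median was 0.15 and 8 of the 10 fold changes were above 0. None had groups that did not overlap, against 0.295% of all genes, being higher. *Tapbp* had the smallest p, with a log2 fold change of 0.49 (SE 0.27, edgeR adjusted p = 0.9725, exact permutation p = 0.254). Without lesional libraries 2 and 11 the median was −0.28, and 1 of the 10 genes was above 0, the exception being *Tapbp*. *H2-D1* and *Psmb9*, at −0.40 and −0.89, then had an unadjusted p under 0.05 in the lower direction. Of the 13403 genes tested in that fit, 471 had such a p in either direction, and 1.47% of all were higher at that p. Of the 13 macrophage and dendritic cell markers, 11 were higher and 2 lower in lesional skin, and 3 had an unadjusted p under 0.05, all higher, against 2.89% of all genes. They were *C1qa*, *C1qb* and *Ptprc*, and *Ptprc*, which marks all leukocytes, had a log2 fold change of 0.45 (SE 0.16, edgeR adjusted p = 0.9725) and was higher in 5 of 5 lesional libraries than in every non-lesional library. Without libraries 2 and 11 *Ptprc* had 0.29 (SE 0.17), *C1qa* 0.16 (SE 0.17) and *C1qb* 0.23 (SE 0.15). Then 7 of the 13 markers were higher and 6 lower. The 1 with an unadjusted p under 0.05 was *Adgre1*, which was lower, at −0.58 (SE 0.27).

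**Figure D4:**
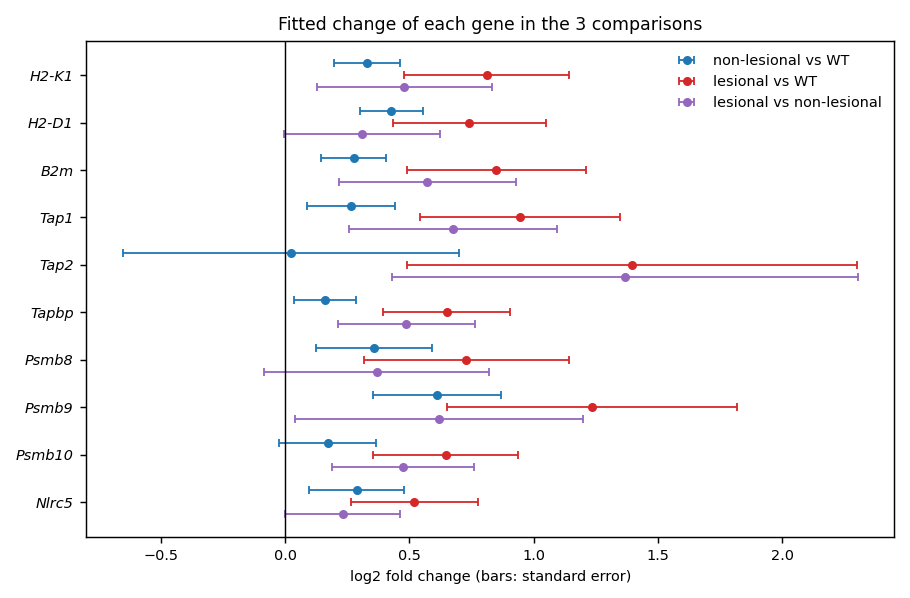
Fitted log2 fold change of each of the 10 genes in the 3 comparisons, with bars for the standard error. The points lie at 0.02 or above in every comparison, and the bars are widest for *Tap2*; the comparisons share libraries.

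The inducible subunits replace *Psmb5*, *Psmb6* and *Psmb7* in the proteasome, so each was set against the subunit whose place it takes. The log2 ratio of *Psmb9* to *Psmb6* was −2.91 ± 0.51 (SD, n = 5) in WT, −2.41 ± 0.44 in non-lesional and −2.57 ± 1.45 in lesional libraries. In 4 of 5 non-lesional libraries it was above every WT library (difference 0.49, two-sided exact permutation p = 0.127). The log2 ratio of *Psmb8* to *Psmb5* was 2.27 ± 0.69, 2.71 ± 0.68 and 2.68 ± 0.98 in the 3 groups, but *Psmb5* had only 4 to 17 counts in a library and did not pass the filter. The log2 ratio of *Psmb10* to *Psmb7* was −0.46 ± 0.34 in WT, −0.52 ± 0.42 in non-lesional and 0.04 ± 0.74 in lesional libraries (lesional against WT, exact permutation p = 0.238). None of the 9 tests of these ratios gave an unadjusted p under 0.05. Without non-lesional library 6 the *Psmb9* to *Psmb6* difference from WT was 0.67 (exact permutation p = 0.0317). With lesional libraries 2 and 11 left out, chosen after seeing the data, the log2 difference of this ratio was −0.66 between lesional and WT libraries and −1.15 between lesional and non-lesional libraries (exact permutation p = 0.0357 for the second).

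**Figure D5:**
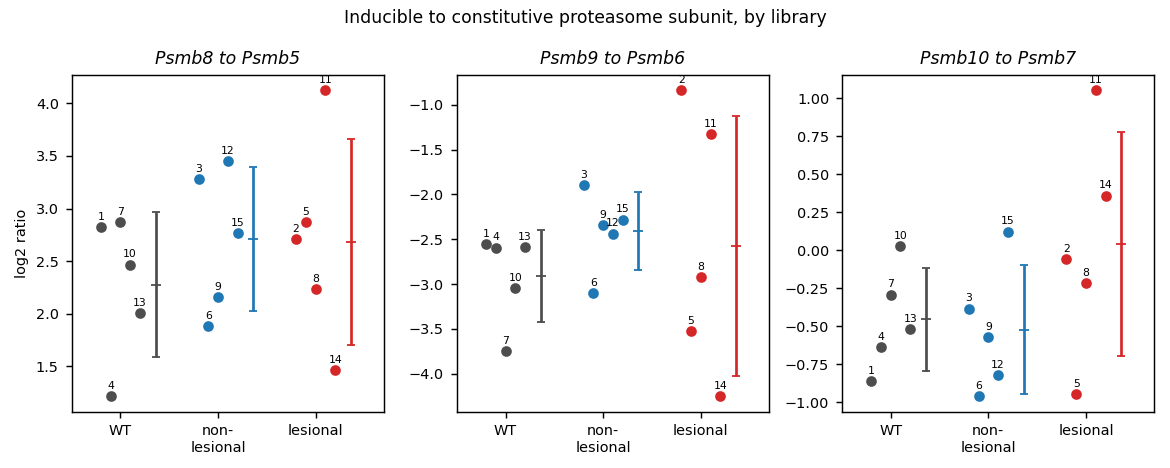
Log2 ratio of each inducible proteasome subunit to the constitutive subunit it replaces, by library, with points numbered by replicate and bars for the mean ± SD of 5 libraries. The *Psmb9* to *Psmb6* ratio is above WT in 4 of 5 non-lesional libraries, and lesional libraries spread most in all 3 panels.

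Other genes of the route were read from lists. None had an adjusted edgeR p under 0.05 in any comparison. The constitutive subunits *Psmb6* and *Psmb7* had log2 fold changes of 0.05 and 0.25 between non-lesional and WT skin and of 0.34 and 0.05 between lesional and WT skin, below the median of the 10 genes in each case. With lesional libraries 2 and 11 left out, the values of lesional against WT skin were 0.33 and −0.04. *Psmb6* was then above the median of the 10 genes, which was 0.03. Between lesional and non-lesional skin *Psmb6* had 0.30 (SE 0.13), with an unadjusted p under 0.05, against 2.89% of all genes. *Psmb7* had −0.19 (SE 0.21) there. Of 11 other core subunits of the 20S proteasome, 9 were higher in non-lesional skin with a median of 0.12, and 9 of the 10 tested were higher in lesional skin with a median of 0.15. In both comparisons 1 had an unadjusted p under 0.05, being higher, against 1.85% and 3.24% of all genes. That gene was *Psmb4*, a β subunit of the core, with a log2 fold change from WT of 0.32 (SE 0.11) in non-lesional and 0.39 (SE 0.15) in lesional skin. All 5 non-lesional and all 5 lesional libraries had more *Psmb4* than every WT library, which held for 0.392% and 0.441% of all genes, and both comparisons used the same WT libraries. *Psmb4* had 0.25 (SE 0.14) in lesional skin without libraries 2 and 11, and 5 of 11 core subunits were higher than in WT. Of 8 proteasome activator and assembly genes tested, 5 were higher in non-lesional and 7 in lesional skin. *Psme1*, a subunit of the interferon-inducible PA28 activator, had a log2 fold change of 0.45 (SE 0.20) in lesional skin, and *Psmg4*, an assembly chaperone, one of 0.48 (SE 0.21) in non-lesional skin, above WT in 5 of 5 libraries. Each was the 1 gene of this list with an unadjusted p under 0.05 in its comparison, against 3.24% and 1.85% of all genes that were higher. *Psme1* had 0.16 (SE 0.17) without lesional libraries 2 and 11.

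Of 8 genes for trimming and loading of peptides in the endoplasmic reticulum, 7 were higher than in WT in both comparisons, against 49.4% and 49.5% of all genes, with medians of 0.13 and 0.23. The chaperones of the loading complex and of folding were among them. *Calr* (calreticulin) had log2 fold changes of 0.20 in non-lesional and 0.61 in lesional skin, *Canx* (calnexin) 0.21 and 0.34, and *Hspa5* 0.29 and 0.47. In lesional skin these 3, and in non-lesional skin *Canx* alone, had an unadjusted p under 0.05, against 3.24% and 1.85% of all genes that were higher. Without lesional libraries 2 and 11 the lesional values were 0.29, 0.24 and 0.19, and none of the 8 genes had an unadjusted p under 0.05. Of 8 other class I and class I-like genes tested, 6 were higher in non-lesional and 5 in lesional skin and none had an unadjusted p under 0.05. The non-classical *H2-T22* had the smallest p of these in both, with 0.36 (SE 0.28) and 1.01 (SE 0.53), the latter being −0.30 (SE 0.34) without lesional libraries 2 and 11.

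Of 15 tested transcription factors that act on class I genes, 10 were higher in non-lesional and 11 in lesional skin, against 49.4% and 49.5% of all genes, with medians of 0.19 and 0.20. In each comparison 3 had an unadjusted p under 0.05, all higher, against 1.85% and 3.24% of all genes. *Irf9* and *Stat2*, whose products act together at the ISRE, were among these in both comparisons. *Irf9* had a log2 fold change of 0.78 (SE 0.18) in non-lesional and 1.21 (SE 0.33) in lesional skin. *Stat2* had 0.66 (SE 0.24) and 1.32 (SE 0.40). The adjusted edgeR p of both was 0.9998 in the first and 0.9256 in the second comparison. Without lesional libraries 2 and 11, *Irf9* had 0.52 (SE 0.20) and *Stat2* 0.57 (SE 0.26) against WT, both with an unadjusted p under 0.05, and 7 of the 15 factors were higher. Both comparisons used the same WT libraries.

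Over the 15 libraries the 10 genes correlated with one another, which is a description of libraries that share groups and depth. Spearman's rho between 2 of the 10 genes had a median of 0.70 over 45 pairs. It was 0.74 over the 36 pairs without *Tap2*, the lowest of which was 0.45, and 0.37 over the 9 pairs with *Tap2*. In the 13 libraries left without lesional 2 and 11 these medians were 0.54, 0.60 and 0.03. *H2-K1* and *H2-D1* each had a rho of 0.92 with the mean of the other 9 genes, *Psmb9* of 0.91, *Psmb10* of 0.44 and *Tap2* of 0.44. The genes most like *Tap2* were *Pfn1* and *Ctnnd1*, with a rho of 0.96 each.

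Among the other 13451 genes, the pattern most like the mean of the 10 was that of *Zc3hav1*, which encodes the zinc-finger antiviral protein, with a rho of 0.94 over 15 libraries and 0.91 over 13. It was followed by *H2-T22* with 0.93 and 0.89 and *Arl6ip1* with 0.89 and 0.82. *Gid8*, *Plbd1* and *Trim34a*, a member of an interferon-inducible TRIM family, each had 0.88, *Slc6a14* had 0.87, and *Tomm22*, *Porcn* and an unnamed gene (ENSMUSG00000111737) had 0.86.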

How the data were processed

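RNA from whole skin was sequenced by the authors as QuantSeq 3′ libraries. Per the submitters' processing notes and the study's methods, reads were clipped with cutadapt 2.10, aligned with Subread to GRCm38, filtered with SAMtools 1.7-2 and counted over exons with featureCounts 2.0.1. The authors deposited these raw counts per gene, and reads that fell on more than 1 gene entered the count of every such gene. The annotation release is not given in the sources used here, and the listed counting parameters include no strand option. The 92 spike-in entries held 0 counts and were left out, and the deposited CPM table was not used. PCR copies were not removed in the counting described.

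Counts were tested in R 4.3.3 with edgeR 4.0.16 (TMM, filterByExpr, robust quasi-likelihood test) on the 2 groups compared, with Benjamini-Hochberg adjustment over all genes tested. The threshold was an adjusted p under 0.05. Standard errors (SE) were obtained from the F statistic and the log2 fold change. CPM are TMM-scaled, and log2 CPM and the log2 ratios use a prior count of 2. Exact permutation tests ran over all 252 splits. DESeq2 1.42.0, limma 3.58.1, other normalizations and filters, 1 fit of all libraries and leaving out each library were the alternatives. The procedure was also run on simulated data, and the outcome is not given here. No 2 libraries were duplicates, since the lowest chi-square per degree of freedom over 105 pairs was 2.35.

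The 10 genes and all lists were chosen with earlier results of these data known. Named genes are the 10, at most 3 genes per list and comparison with the smallest p, and the 10 genes with the highest Spearman correlation with their mean. A gene that this rule would name is not reported here. Single cell type markers, *Krt6b*, *Zbtb22*, *Pfn1* and *Ctnnd1* were chosen with their values in view. Gene positions are from GENCODE M21. Sex was not a term in the fits, and *Ddx3y*, a Y-linked gene, was at 0 counts in WT library 1, non-lesional library 12 and lesional library 11.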

Additional observations from a re-analysis of the deposited data

Results flagged for a closer look

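Each group of 5 values of the 10 genes and of the subunit ratios was searched for a library far from the others by Dixon's ratio, the gap to the nearest library over the range of the group, with a critical value of 0.71. Of 39 groups searched, 2 exceeded it, where chance marks about 1 group in 20. For *Psmb10*, WT replicate 1 lay below the other WT libraries on the log2 CPM scale, at 12.6 against 19.9 to 22.02 CPM, with a ratio of 0.815. For *Tapbp*, non-lesional replicate 6 lay below the other non-lesional libraries, at 94.1 against 140.6 to 157.7 CPM, with a ratio of 0.778.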

How the results depend on the processing

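The groups share no replicate numbers, but the numbers run in 5 sets of 3 consecutive ones, 1 from each group. Whether a set marks a mouse, litter or batch is not given in the sources used here. Deviations from the group means, over genes, correlated within sets at 0.11 to 0.35 between lesional and non-lesional, 0.12 to 0.27 between non-lesional and WT and −0.093 to 0.26 between lesional and WT libraries. With the sets as a replicate block, an alternative chosen after seeing the data, the median log2 fold changes were 0.29 (non-lesional against WT), 0.60 (lesional against WT) and 0.33 (lesional against non-lesional). Of the 10 genes, 4, 3 and 0 then had an unadjusted p under 0.05, and 0 an adjusted one. Shares of all genes higher at that unadjusted p were 3.26%, 2.58% and 2.82%, and 8, 0 and 0 genes had an adjusted p under 0.05. The adjusted p stayed above the threshold for each of the 10 genes in the 3 comparisons under each alternative, including DESeq2, voomWithQualityWeights and every left-out library. The number with an unadjusted p under 0.05 between non-lesional and WT skin was 3, and 0 with all 15 libraries in 1 fit. It ran from 1 (without non-lesional 3) to 7 (without non-lesional 6) when a library was left out. Between lesional and WT skin it was 6. It was 3 without the filter on low counts, 0 with voomWithQualityWeights and 0 without lesional libraries 2 and 11. It ran from 0 (without WT 4, lesional 2 or lesional 11) to 8 (without lesional 5, 8 or 14), and was 2 without WT 1 or 7. Between lesional and non-lesional skin it was 0, and 0 to 3 with a library left out, the 3 without lesional 5.

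The median log2 fold change ran from 0.22 to 0.38, from 0.42 to 0.96 and from 0.14 to 0.65 in the 3 comparisons when a library was left out, in the last 2 lowest without lesional 11. With voomWithQualityWeights it was 0.28, 0.39 and 0.15. Without lesional 2 and 11 together, an alternative chosen after seeing the data, the median between lesional and non-lesional skin was −0.28. There *H2-K1* was at −0.29, *H2-D1* at −0.40, *B2m* at −0.26, *Tap1* at −0.18, *Tap2* at −0.71, *Psmb8* at −0.60, *Psmb9* at −0.89, *Psmb10* at −0.047 and *Nlrc5* at −0.15. Against WT, *Tap2* was then at −0.69, *Psmb8* at −0.25 and *Psmb9* at −0.29. Other single values also changed sign. *Tap2* between non-lesional and WT skin was at −0.22, −0.091, −0.11 and −0.74 without WT 7, WT 10, WT 13 and non-lesional 3, and at most 0.61, without WT 1. *H2-D1* and *Psmb9* between lesional and non-lesional skin were at −0.016 and −0.0045 with voomWithQualityWeights, and *Psmb8* ran from −0.067 without lesional 11 to 0.58 without lesional 14. The cause was not tested.

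With a library left out, the log2 difference of the *Psmb8* to *Psmb5* ratio ran from 0.17 to 0.64 (non-lesional against WT), 0.04 to 0.71 (lesional against WT) and −0.39 to 0.28 (lesional against non-lesional). For *Psmb9* to *Psmb6* it ran from 0.28 to 0.67, −0.10 to 0.76 and −0.59 to 0.26. For *Psmb10* to *Psmb7* it ran from −0.23 to 0.054, 0.24 to 0.74 and 0.31 to 0.81. Without lesional 2 and 11 together, it was −0.084 for *Psmb8* to *Psmb5* against WT and, for *Psmb9* to *Psmb6*, −0.66 against WT and −1.15 against non-lesional (exact permutation p = 0.0357). With 1 library left out, the exact permutation p passed under 0.05 in 3 of these, at 0.0317 for *Psmb9* to *Psmb6* without non-lesional 6, and at 0.0476 for *Psmb10* to *Psmb7* without lesional 5 against both other groups. Of the 10 genes most like the mean, 2 were shared with a Pearson ranking and 6 with a ranking without lesional 2 and 11. Of the values of single genes under the alternatives other than the block and leaving out lesional 2 and 11 together, 528 kept their sign and side of the threshold and 7 changed sign. With at least 10 counts required in every library, 9, 8 and 8 of the 10 genes could be tested. At 1 to 102 counts per library, *Tap2* was the least precise of the 10, and counting error limits *Psmb9* and *Psmb5* likewise.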
